A study of Mus musculus with 4 samples.

Results

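Polycomb repressive complexes are chromatin regulators, and 10 genes of their subunits were followed here in outgrowths of mouse blastocysts with and without Tip110. The 10 genes were chosen by name as the Polycomb subunits Ezh2, Ezh1, Eed, Suz12, Jarid2, Mtf2, Phf19, Rnf2, Ring1 and Bmi1. Each had 1 row in the table with a single gene symbol, so all 10 were measured, out of 30142 genes tested. No filter on low values was applied.

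The arrays compared wild-type with Tip110-/- outgrowths, 2 arrays per genotype. Blastocysts were flushed at 3.5 days post coitum after intercrosses of Tip110+/- mice and grown singly, untreated, for 4 to 6 days (KOSR-ESCM, a stem cell medium that contains knockout serum replacement). In either genotype 3 outgrowths were pooled for replicate 1, while replicate 2 came from 1 outgrowth. The labels call the samples biological replicates and do not describe the deleted part of Tip110, the sex of the embryos or their litters. An outgrowth holds several cell types: trophoblast cells spread on the plate around descendants of the inner cell mass. In such a bulk sample, fewer cells of a type and less RNA per cell cannot be told apart. Tip110 is encoded by Sart3, whose signal on the log2 scale was 4.94 and 5.98 in the 2 wild-type samples, against 4.28 and 4.54 in Tip110-/- (difference -1.05, limma adjusted p = 0.386). It was -0.53 without wild-type replicate 2, -1.57 without wild-type replicate 1 and -0.42 with the positive control rows as the reference. Whether the probes of that row lie in the deleted part is not known.

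Polycomb group proteins keep developmental genes silent. Polycomb repressive complex 2 (PRC2) methylates a lysine of histone H3 through Ezh2 or its paralog Ezh1, and needs Eed, which binds the mark, and Suz12, the scaffold. Jarid2, Mtf2 and Phf19 are accessory subunits that help PRC2 find its targets. Polycomb repressive complex 1 (PRC1) adds ubiquitin to histone H2A through Rnf2 (also called Ring1b) or Ring1, each paired with a PCGF protein such as Bmi1. In mouse embryonic stem cells PRC2 is not needed for self-renewal but is needed for orderly differentiation, and embryos without Ezh2, Eed or Suz12 die early after implantation.

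The promoters of the 10 genes were read from RefSeq (build GRCm38.p6) as windows of 300 bases, 250 before and 50 after a transcript start. There were 12 windows, since Jarid2 and Mtf2 have more than 1 listed start. Most were rich in CpG: the 12 windows held a median of 27 CpG dinucleotides, from 2 in the second Mtf2 window to 41 in that of Suz12, against a median of 7 and a quartile range of 3 to 20 over all 32851 windows. The motif bound by E2F factors, which drive genes of the cell cycle, was searched on both strands in the spellings TTTCCCGC, TTTCGCGC, TTTGCCGC and TTTGGCGC. None of these spellings overlapped another in the windows printed. It was present in the windows of Ezh2, Suz12 and Phf19, 3 of 12, where 2.27% of all windows held it. Each spelling holds a CpG, and most member windows are rich in CpG. The share among CpG-rich windows was not taken, so 2.27% is not a matched background for the 3 windows. These 3 windows are shown with the motif in capitals, the one in Phf19 being on the opposite strand, together with the first window of Jarid2, the member with the largest difference between genotypes, which holds no such letters. All are written 5′ to 3′ on the strand of the gene.
Jarid2, chr13:44730524-44730823, plus strand: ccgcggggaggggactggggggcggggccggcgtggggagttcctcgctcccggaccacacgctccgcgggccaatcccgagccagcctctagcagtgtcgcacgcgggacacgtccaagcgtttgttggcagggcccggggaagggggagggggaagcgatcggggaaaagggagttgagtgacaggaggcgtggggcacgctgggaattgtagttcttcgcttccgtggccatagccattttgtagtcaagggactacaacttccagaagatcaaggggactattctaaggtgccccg
Ezh2, chr6:47594981-47595280, minus strand: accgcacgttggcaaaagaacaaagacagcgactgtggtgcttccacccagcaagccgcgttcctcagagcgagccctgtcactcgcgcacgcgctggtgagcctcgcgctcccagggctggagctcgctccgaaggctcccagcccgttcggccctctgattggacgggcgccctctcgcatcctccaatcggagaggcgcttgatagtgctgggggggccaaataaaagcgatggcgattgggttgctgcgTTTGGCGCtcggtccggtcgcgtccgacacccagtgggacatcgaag
Suz12, chr11:79992856-79993155, plus strand: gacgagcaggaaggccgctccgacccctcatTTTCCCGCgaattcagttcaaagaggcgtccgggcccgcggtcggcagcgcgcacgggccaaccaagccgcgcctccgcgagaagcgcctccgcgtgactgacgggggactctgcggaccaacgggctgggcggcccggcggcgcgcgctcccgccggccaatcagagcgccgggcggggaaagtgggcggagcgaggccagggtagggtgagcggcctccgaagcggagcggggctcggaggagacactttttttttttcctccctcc
Phf19, chr2:34913927-34914226, minus strand: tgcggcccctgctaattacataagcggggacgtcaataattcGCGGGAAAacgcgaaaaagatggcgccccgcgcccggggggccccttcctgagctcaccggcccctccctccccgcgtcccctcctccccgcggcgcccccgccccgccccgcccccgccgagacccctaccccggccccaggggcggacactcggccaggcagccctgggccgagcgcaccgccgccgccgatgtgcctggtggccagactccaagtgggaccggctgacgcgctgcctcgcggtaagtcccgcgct
In Ezh2 the motif starts at base 4 after the start, in Suz12 at base -219 and in Phf19 at base -208. The 3 genes with the motif did not share a pattern on the arrays: as given below, the difference was 0.09 in Ezh2, -1.03 in Suz12 and 0.25 in Phf19.

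Of the 10 Polycomb genes, Jarid2 stood out, with a difference of -2.53 on the log2 scale in Tip110-/- relative to wild-type outgrowths, and it was the only one at an unadjusted limma p under 0.05. Eed was lower in both Tip110-/- arrays without passing. Of the catalytic genes, Ezh2, Rnf2 and Ring1 differed by less than 0.1 in size and Ezh1 by -0.42, with intervals that include 0. No gene of the array passed the adjusted threshold of 0.05 (0 of 30142, 0%), with 3817 genes (12.7%) at an unadjusted p under 0.05. Thus 1 of 10 members was lower at that unadjusted threshold, against 3.67% of all genes, and 0 of 10 were higher, against 8.99%. A count of 1 gene is no basis for setting the group apart.

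**Figure D1:**
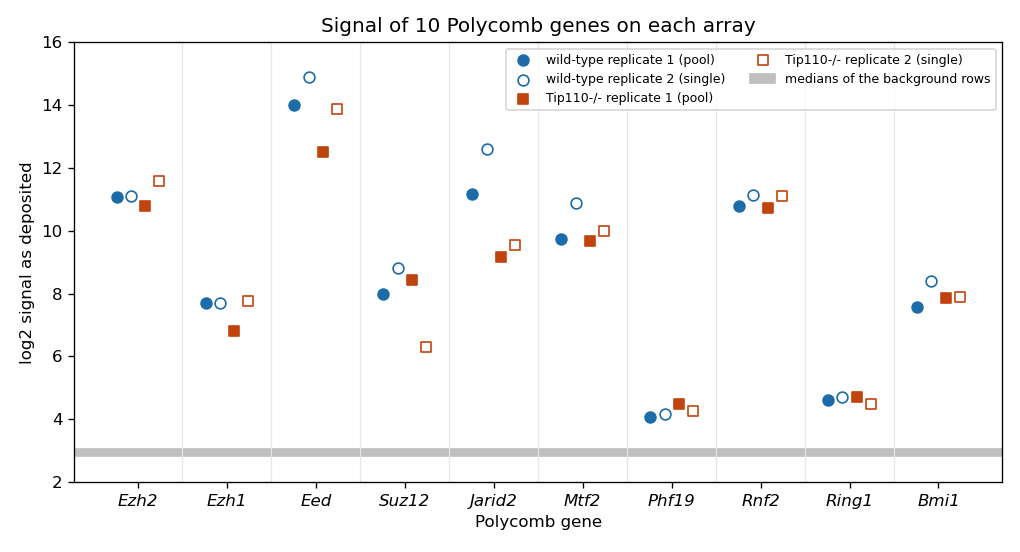
Signal of the 10 Polycomb genes (x axis) on the log2 scale as deposited (y axis), with 1 point per array. Circles are wild-type and squares Tip110-/-, filled for pools of 3 outgrowths and open for single outgrowths, and the grey band spans the medians of the background rows on the 4 arrays. For Jarid2 and Eed both squares lie below both circles, and for Phf19 both lie above. Heights of different genes come from different probes and are not comparable.

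The arrays themselves differed in ways that touch these values. The wild-type arrays had a median over genes of 4.21 and 4.22, those of Tip110-/- 4.45 and 4.32, and the median difference over all genes was 0.15. Background rows had medians of 2.83 and 2.82 against 3.05 and 2.94. The rows taken as controls for exons of widely expressed genes had medians of 9.80 and 9.66 against 8.69 and 9.51, lowest in the pooled Tip110-/- array. RNA collected per outgrowth was 249 and 178 pg for wild-type, against 55 and 144 pg for Tip110-/-. By the labels, the amount of RNA labelled was the same for each array, 144 pg. Whether genotype or these features of the arrays goes with a difference cannot be told apart. Of the tissue's expected cells, some trophoblast and inner cell mass markers were well above background (Krt8 at 16.08 to 17.22 on the 4 arrays, Pou5f1 at 10.04 and 10.06 in wild-type). Others had lower signals, such as Tpbpa of trophoblast (3.83 to 4.38 on the 4 arrays) and Esrrb of the inner cell mass (5.28 and 5.09 in wild-type). Among the primitive endoderm markers Sparc ranged from 11.37 to 12.90 and Lama1 from 5.97 to 8.20. The transcription factors Sox17 (3.45 to 3.64) and, apart from the single Tip110-/- outgrowth at 5.69, Gata6 (3.60 to 3.96) were closer to background. Cdx2, a trophoblast stem cell factor, was at 4.66 and 4.97 (wild-type) and at 6.10 and 4.77 (Tip110-/-).

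Among the core subunits of PRC2, the methyltransferase Ezh2 had a signal of 11.09 and 11.11 in wild-type, compared with 10.79 and 11.58 in Tip110-/-. The Tip110-/- arrays lay on either side of the wild-type ones. The difference was 0.09 ± 0.54 (SE), with a 95% interval of -1.30 to 1.47 (limma adjusted p = 0.943). Its paralog Ezh1, the methyltransferase of less proliferative cells, was at 7.71 and 7.71 in wild-type and at 6.81 and 7.77 in Tip110-/-. Only the pooled Tip110-/- array was below wild-type, and the difference of -0.42 had an interval of -1.72 to 0.89 (limma adjusted p = 0.677).

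Eed, the subunit that reads methylated histone H3, was at 14.01 and 14.91 in wild-type and at 12.51 and 13.87 in Tip110-/-. Both Tip110-/- values were lower, although the single Tip110-/- outgrowth was only 0.14 below the wild-type pool. The means were 14.46 ± 0.64 and 13.19 ± 0.97 (SD, n = 2), a difference of -1.27 ± 0.61 (SE) with an interval of -2.84 to 0.30 (limma adjusted p = 0.417). Leaving out single arrays moved this difference between -0.59 without Tip110-/- replicate 1 and -1.95 without Tip110-/- replicate 2, and with the positive control rows as the reference it was -0.64. The pooled Tip110-/- array, in which Eed was lowest, was also the one with the lowest control signal. The part of the control signal in the value of Eed was not tested.
Suz12, the scaffold, was at 7.98 and 8.81 in wild-type and at 8.43 and 6.30 in Tip110-/-. It was low in the single Tip110-/- outgrowth alone, while the pool lay inside the wild-type range. The difference of -1.03 had an interval of -3.19 to 1.14 (limma adjusted p = 0.545). It was 0.04 without Tip110-/- replicate 2 and -2.09 without Tip110-/- replicate 1, so this single array decides it.

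Among the accessory subunits of PRC2, Jarid2, a Jumonji-family protein without demethylase activity, was at 11.16 and 12.61 in wild-type, compared with 9.16 and 9.55 in Tip110-/-. Both Tip110-/- arrays were lower than both wild-type arrays by at least 1.61, and the groups did not overlap. Like Eed, Jarid2 was lowest in the pooled Tip110-/- array, the one with the lowest control signal. The means were 11.89 ± 1.02 and 9.36 ± 0.28 (SD, n = 2). The difference was -2.53 ± 0.68 (SE), a 5.78-fold lower signal, with an interval of -4.29 to -0.78. Relative to the median of all genes it was -2.68, and with the positive control rows as the reference -1.90. For the reported difference of -2.53 the limma adjusted p was 0.342. Its unadjusted limma p of 0.0138 ranked 1218th of the 30142 genes. Over the 14 other settings tried, the difference stayed between -3.26 and -1.81 and was past the unadjusted threshold in 12 of them. It was not past it without wild-type replicate 2 (-1.81) or without Tip110-/- replicate 1 (-2.34).

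Markers of the pluripotent epiblast and of dividing cells moved in the same direction as Jarid2. Of 10 epiblast markers, 7 were lower by that unadjusted threshold and 9 had no overlap between genotypes, where 3.67% and 12.9% of all genes were lower in these ways. Their summed signal was 14.64 and 15.99 in wild-type against 11.60 and 10.18 in Tip110-/-. Summed signals here are the log2 of a sum on the linear scale, set mostly by the brightest genes of a list. Nanog alone was at 13.56 and 15.19 in wild-type. Nanog differed by -7.25 (-4.27 without Tip110-/- replicate 2), Tdgf1 by -6.05, Sox2 by -4.34, Fgf4 by -4.15 and Pou5f1 by -3.41. Of 13 markers of dividing cells, 7 were lower by the same threshold and 11 had no overlap, beside the same shares of all genes, with a summed signal of 14.85 and 15.27 against 13.84 and 13.76. Mki67 differed by -4.80 (-2.80 without Tip110-/- replicate 2), Cdc20 by -4.41, Top2a by -3.99 and Aurkb by -2.78. Without wild-type replicate 2, Nanog (-6.43) and Mki67 (-4.14) were no longer past the unadjusted threshold. None of the 11 trophoblast markers passed, although all 11 differences were above 0, from 0.07 to 1.03 with a median of 0.60 (0.15 for all genes). The groups did not overlap in 3 of the 11, all higher, where 39.9% of all genes were higher in this way. Only these, Eomes, Tfap2c and Krt8, were higher both between the pools and between the single outgrowths. The summed signal of the trophoblast markers was 18.63 and 18.01 against 18.51 and 19.43. Higher at an unadjusted p under 0.05 was 1 of them each with quantile normalization and cyclic loess, where 1262 and 1173 of the 30142 genes were. With the positive control rows as the reference 5 were, against 2415 of all genes. The count of 0 was not kept in every case with 1 array left out. The list median then ran from 0.38 without wild-type replicate 2 to 0.74 without Tip110-/- replicate 1. None passed among the 10 primitive endoderm markers, whose summed signal was 13.00 and 12.19 against 11.53 and 12.17. Sparc alone was at 12.90 and 12.13 against 11.37 and 12.03. The part of the cell makeup in the difference of Jarid2 was not tested.

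The Polycomb-like proteins Mtf2 and Phf19 bind DNA and methylated histone H3 and bring PRC2 to CpG islands. Mtf2 was at 9.74 and 10.89 in wild-type and at 9.67 and 10.001 in Tip110-/-. The single wild-type outgrowth was highest and the other 3 arrays lay close together. The difference of -0.48 had an interval of -2.09 to 1.13 (limma adjusted p = 0.696), and it was 0.10 without wild-type replicate 2. Phf19 was at 4.08 and 4.16 in wild-type and at 4.49 and 4.26 in Tip110-/-, values near the median over genes on each array. Both Tip110-/- values were higher, but the difference of 0.25 (interval -0.17 to 0.67, limma adjusted p = 0.474) was of the size of the shift of all genes, 0.15, and was 0.10 relative to it.

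Of the PRC1 members, none reached an unadjusted p under 0.05. Rnf2, the main ubiquitin ligase of PRC1 in embryonic stem cells, was at 10.79 and 11.13 in wild-type and at 10.72 and 11.11 in Tip110-/-. In each genotype the single outgrowth was above the pool, and the difference between genotypes was -0.05 (interval -1.36 to 1.27, limma adjusted p = 0.970). Ring1, its paralog, was at 4.62 and 4.70 in wild-type and at 4.71 and 4.49 in Tip110-/-, again near the median over genes, with a difference of -0.05 (interval -0.54 to 0.43, limma adjusted p = 0.893). Bmi1, a PCGF partner of both ligases, was at 7.58 and 8.41 in wild-type and at 7.86 and 7.89 in Tip110-/-. The Tip110-/- values lay inside the wild-type range, and the difference was -0.12 (interval -1.44 to 1.19, limma adjusted p = 0.911). The intervals of Rnf2 and Bmi1 still include a 2-fold difference in either direction, so similar levels were not shown.

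**Figure D2:**
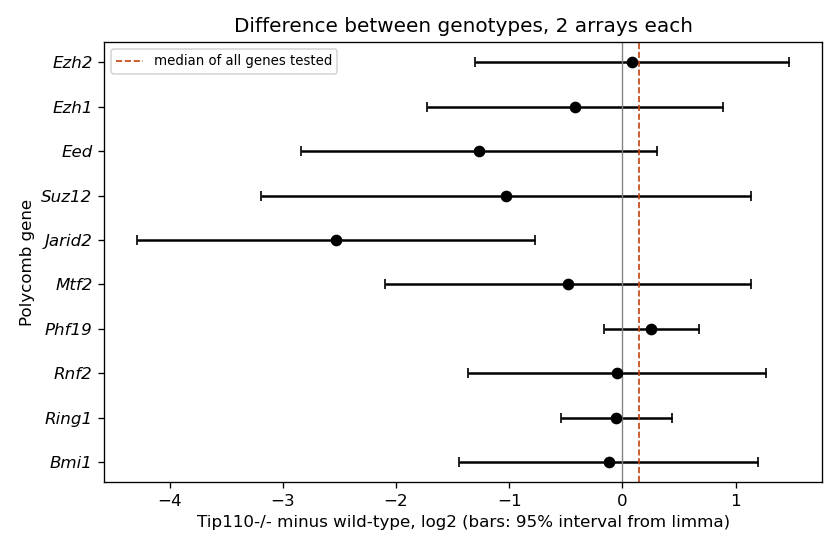
Difference between genotypes, Tip110-/- minus wild-type on the log2 scale (x axis), for each Polycomb gene (y axis), as points with 95% intervals from limma over 2 arrays per genotype. The dashed line is the median of all genes tested, 0.15. The interval of Jarid2, -4.29 to -0.78, is the only one that does not include 0.

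Across the 10 genes the median difference was -0.27, against 0.15 for all genes tested, which is -0.42 relative to all genes. With the arrays centred on the positive control rows the median of the members was 0.36, the opposite sign, and that of all genes 0.78, a shift that the setting adds to every gene alike. Relative to all genes the member median was -0.24 with quantile normalization and -0.27 with cyclic loess. Without wild-type replicate 2 the median of the members was 0.04, or -0.11 relative to all genes. The groups did not overlap in 3 members, lower in Jarid2 and Eed and higher in Phf19, but those of Eed overlapped with the positive control rows as the reference and those of Phf19 with quantile normalization. Over all genes the groups did not overlap in 52.9%, lower in 12.9% and higher in 39.9%.

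Pools and single outgrowths gave different pictures for several members. Jarid2 was lower in Tip110-/- in both, by a difference of -2.003 between the pools and -3.06 between the single outgrowths, and so was Eed, at -1.50 and -1.04. Mtf2 was at -0.07 and -0.89, Rnf2 at -0.07 and -0.02, and Phf19 at 0.40 and 0.10. The sign was not shared in the other 5 genes. Suz12 had the widest gap, 0.46 between the pools and -2.51 between the single outgrowths. Ezh1 was at -0.89 and 0.06, Ezh2 at -0.30 and 0.47, Bmi1 at 0.28 and -0.52, and Ring1 at 0.10 and -0.21. Each of these is a comparison of 2 arrays with no replicate.

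**Figure D3:**
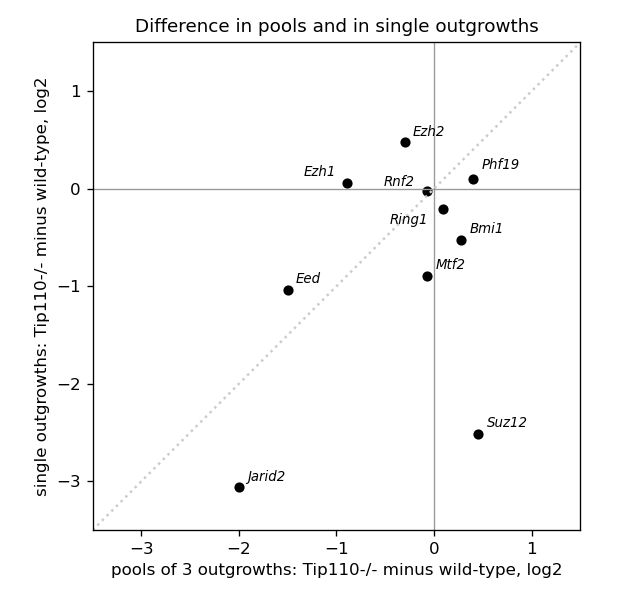
Difference between genotypes on the log2 scale in the pools of 3 outgrowths (x axis) and in the single outgrowths (y axis), with 1 point per Polycomb gene and a dotted line of equal difference. Jarid2 (-2.003 and -3.06) and Eed (-1.50 and -1.04) lie in the lower left corner region, and Suz12 lies at 0.46 and -2.51.

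Paralogs were compared through the log2 difference between the pair within each array, since levels from different probes cannot be set against each other. For Ezh1 minus Ezh2 the values were -3.39 and -3.40 for wild-type, -3.98 and -3.81 for Tip110-/-. The groups did not overlap, and Ezh1 differed by -0.50 more than Ezh2 between genotypes, with an exact two-sided permutation p of 0.33, the smallest that 2 arrays against 2 allow. For Ring1 and Rnf2 the change of the pair was -0.01 and the groups overlapped (exact permutation p = 1). For Mtf2 and Phf19 it was -0.73, again with overlap (exact permutation p = 0.667), and it ranged from -1.27 without wild-type replicate 1 to -0.19 without wild-type replicate 2.

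The other genes of the Polycomb system were followed in 6 lists, which together held 93 genes besides the 10 members, 85 of them with a row. Of these, 80 did not reach an unadjusted p under 0.05, 4 were lower and 1 was higher, where 3.67% of all genes were lower and 8.99% higher. The lower count is close to the share over all genes, and the higher count is below it. This holds for the reported fit. Without an intensity trend 11 of the 85 were lower, against 1479 of the 30142 genes. With centring on the gene median 10 were, against 1825. Both are above the share over all genes. Higher under these settings were 3 and 1 of the 85, against 1659 and 911. The list counts below are from the reported fit. Among other PRC2 subunits 0 of 7 were lower and 1 was higher, with a median of -0.37. The gene that was higher was Lcor, whose locus encodes the PRC2 accessory protein PALI1, at 11.13 and 10.22 against 12.26 and 13.59. Both Tip110-/- values were higher, and it differed by 2.25 ± 0.68 (SE, limma adjusted p = 0.351), or 4.74-fold. Without wild-type replicate 2 it was 1.79 and without Tip110-/- replicate 2 it was 1.58, neither past the unadjusted threshold. Lcor has more than 1 row, and with its rows averaged the difference was 1.95. The rows were not assigned to the transcripts of this locus here.

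Of the PRC1 genes of the CBX, Polyhomeotic and SCM families, 1 of 10 was lower and 0 higher, with a median of -0.04. Phc1, a Polyhomeotic protein whose SAM domain links PRC1 complexes into clusters, was at 9.02 and 8.43 in wild-type and at 6.14 and 6.35 in Tip110-/-. All wild-type values exceeded all Tip110-/- values by at least 2.09. Phc1 too was lowest in the pooled Tip110-/- array. The difference was -2.49 ± 0.46 (SE), a 5.61-fold lower signal (limma adjusted p = 0.318), and it stayed past the unadjusted threshold in all 14 other settings. In the PCGF and variant PRC1 list, 1 of 18 was lower and 0 higher, with a median of -0.11. This was Pcgf6, the PCGF subunit of a variant PRC1 that silences germline genes in mouse embryonic stem cells, at 5.51 and 5.87 against 4.55 and 4.23. It differed by -1.30 ± 0.26 (SE, limma adjusted p = 0.318), and by -0.67, not past the unadjusted threshold, with the positive control rows as the reference. Jarid2, Phc1 and Pcgf6 are thus the Polycomb genes at an unadjusted p under 0.05 in the lower direction, 1 accessory PRC2 gene and 2 PRC1 genes.

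Genes that oppose Polycomb were also measured. Among genes that remove Polycomb marks, 1 of 8 was lower and 0 higher, with a median of -0.10. It was Asxl1, the partner of the histone H2A deubiquitinase Bap1, at 7.15 and 7.44 against 6.14 and 6.25. The difference of -1.10 ± 0.37 (SE, limma adjusted p = 0.368) was past the unadjusted threshold in 8 of the 14 other settings and in none of the 4 that left out an array. In the Trithorax and COMPASS list, whose proteins methylate histone H3 at active genes, 1 of 12 was lower and 0 higher, with a median of -0.52. Dpy30, a core subunit shared by the COMPASS complexes, was at 7.90 and 8.01 in wild-type and at 6.15 and 4.399 in Tip110-/-, lowest in the single outgrowth. It differed by -2.68 ± 0.65 (SE, limma adjusted p = 0.334). Against the median of all genes, the medians of the 6 lists ran from -0.67 for Trithorax and COMPASS to -0.01 for Polycomb targets. As measured, the medians of all 6 lists were above 0, from 0.11 to 0.77, with the positive control rows as the reference, and that of the CBX, Polyhomeotic and SCM list was also above 0 with quantile normalization, at 0.03. With 1 array left out, that list median was 0.26 without wild-type replicate 1 and 0.0089 without Tip110-/- replicate 2, and the median of the genes that remove Polycomb marks was 0.12 without wild-type replicate 2 and 0.15 without Tip110-/- replicate 1. The signs of these 2 medians are therefore not settled. That of the Polycomb targets was below 0 with quantile normalization (-0.0077), with centring on the gene median (-0.026) and with cyclic loess (-0.034). Counting the positive control reference, no list median kept its sign under every setting.

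The 30 measured genes of a list of developmental regulators known as Polycomb targets in embryonic stem cells, such as Hox, Pax and Neurog genes, gave no gene past the threshold in either direction. The list also holds Cdx2, Eomes, Hand1, Gata4, Gata6, Sox17 and Foxa2, which are in the trophoblast or primitive endoderm marker lists too. Of these, Eomes (11.34 to 12.97 on the 4 arrays) and Hand1 (9.07 to 11.16) were far above background. The unadjusted limma p under 0.05 was reached by 0 of 30, where 12.7% of all genes reached it, and the limma adjusted threshold by 0 as well. Their median difference was 0.14, against 0.15 for all genes tested. Both Tip110-/- values were higher in 15 of 30 and lower in 2, beside 39.9% and 12.9% of all genes. The median level over the list, 3.74 and 3.63 for wild-type and 3.85 and 3.80 for Tip110-/-, lay less than 1 log2 unit above the medians of the background rows. The count of 0 did not hold with either Tip110-/- array left out. The list median was then 0.08 without Tip110-/- replicate 1, against 0.11 for all genes. Without Tip110-/- replicate 2 it was 0.15, against 0.16.

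**Figure D4:**
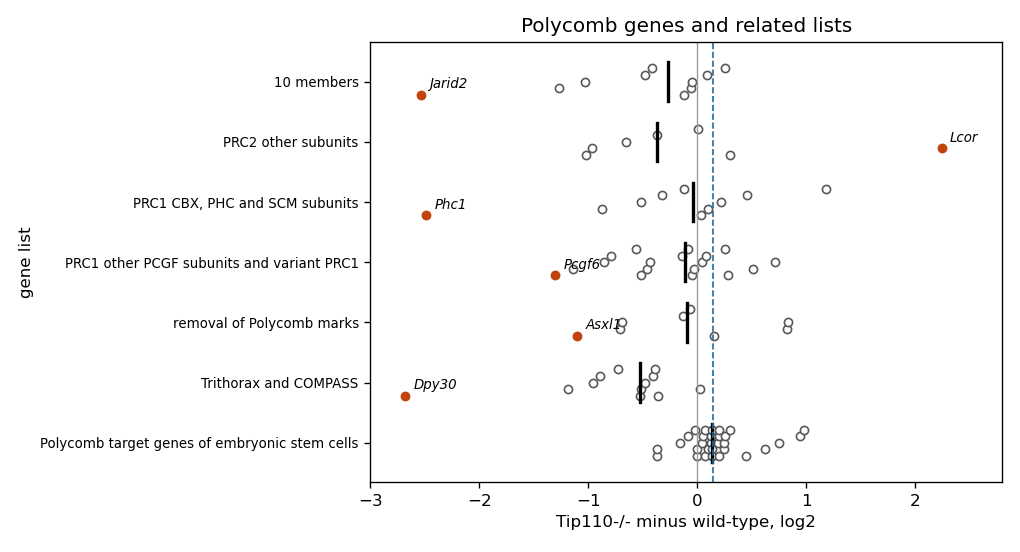
Difference between genotypes on the log2 scale (x axis) for the 10 Polycomb genes and the 6 related lists (y axis), with 1 point per gene, black bars for list medians and a dashed line for the median of all genes, 0.15. Filled points are genes at an unadjusted limma p under 0.05, which are Jarid2, Lcor, Phc1, Pcgf6, Asxl1 and Dpy30.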

How the data were processed

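RNA of 4 samples was hybridised to Affymetrix whole-transcript mouse arrays. The authors deposited log2 values for 72688 rows; the log base was inferred from their range. The submitters' processing notes name Transcriptome Analysis Console and Affymetrix Expression Console. Neither the normalization nor the build is stated in them. Rows with 1 distinct gene symbol in the platform annotation were kept (30604 rows; 2146 had several), updated by Entrez ID, with the brightest row per gene, giving 30142 genes.

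Genes were fitted with limma 3.58.1 in R 4.3.3 (lmFit, eBayes with an intensity trend, genotype as the term), two-sided, adjusted by Benjamini-Hochberg over all 30142 genes. The fit was checked on simulated data. Counts at an unadjusted p are descriptive. Promoters and plots used Python 3.11.15, pandas 2.3.3 and matplotlib 3.10.9. Genes named are the 10 members, Sart3, up to 4 per related list and up to 3 per marker list with the smallest unadjusted p under 0.05, and fixed lineage markers. Other genes of the lists, such as Krt8, Tpbpa, Esrrb, Sparc, Lama1, Sox17, Eomes and Tfap2c, were named outside this rule to describe levels or overlap. Gene lists came from textbook knowledge. Members and lists were chosen with earlier results of these data known. The 8 genes of the related lists without a row were not analysed here. The number of arrays limits the precision. For each p-value limma combines the spread of the gene between these samples with a trend over all genes. The p-values reach no further than these samples.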

Additional observations from a re-analysis of the deposited data

How the results depend on the processing

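The 14 other settings left 0 genes past the adjusted threshold, except that 680 passed with arrays centred on the positive control rows, where the median difference of all genes was 0.78. Under that setting Ezh1 was at 0.21, Mtf2 at 0.15, Rnf2 at 0.58, Ring1 at 0.57 and Bmi1 at 0.51, of opposite sign to the reported values. The member median was 0.36, and 1 member was lower and 4 higher without overlap. Shares of all genes without overlap were taken for the reported values alone, so such counts under other settings have no background. The control-row reference gave 506 lower and 2415 higher genes at an unadjusted p under 0.05. In the related lists 2 were lower and 7 higher. Nanog had a smaller difference there, -6.62 against -7.25, yet its unadjusted limma p fell from 0.0151 to 9.3e-22. Counts by p-value under this setting thus also depend on another estimate of spread. Centring on the gene median put Ezh2 at -0.079, with 4 members lower without overlap, 1825 genes lower and 911 higher, and 10 related genes lower. With quantile normalization Rnf2 was at 0.0027, 0 members were higher without overlap and 1262 genes were higher. Cyclic loess put Rnf2 at 0.028 and 1173 genes higher. Without an intensity trend 1479 genes were lower and 1659 higher, and 11 related genes were lower and 3 higher. With rows above the median row only, 957 genes were higher. With the replicate number as a block, 2 members passed the unadjusted threshold, Jarid2 and Eed (limma adjusted p = 0.414 and 0.448). In both genotypes the replicate number also separates the pool from the single outgrowth. The replicate differences of the genotypes correlated at -0.09 across genes.

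With 1 array left out, members lower by the unadjusted threshold ranged from 0 to 2, members without overlap from 2 to 6 lower and 1 to 3 higher, and the member median from -0.48 to 0.04. Genes past that threshold ranged from 862 to 1314 lower and 1166 to 4660 higher, related genes from 3 to 6 lower and 0 to 7 higher. With 1 array in a group, groups fail to overlap more readily than with 2 arrays against 2. The share of all genes without overlap was not taken there, so the overlap counts do not set the members apart. Ezh1 ranged from -0.89 to 0.061, Ezh2 from -0.31 to 0.48, Suz12 from -2.09 to 0.037, Mtf2 from -1.06 to 0.10, Rnf2 from -0.24 to 0.15, Ring1 from -0.17 to 0.057 and Bmi1 from -0.54 to 0.30. The change of Ring1 relative to Rnf2 ranged from -0.31 to 0.30. The cause of these shifts was not tested. Jarid2, Eed, Phf19, Phc1, Pcgf6, Lcor, Asxl1 and Dpy30 kept their direction under all 14.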
